A study of Mus musculus with 8 samples.

Results

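The axon guidance ligands and receptors are the secreted Slits, netrins and semaphorins, the ephrins, and the Robo, UNC5, neogenin, neuropilin, plexin and Eph receptors that bind them. The genes were taken by symbol from the deposited table of gene counts, with earlier results of these data known. They are every Slit, Robo, semaphorin of classes 3 to 7, plexin, neuropilin, ephrin, Eph, netrin and Unc5 gene listed there, plus Neo1. Members of these families that are not listed there are not covered. Of the 18768 genes of the table, 60 matched. Dcc, the best known netrin receptor, was not analysed here. Of the 60 genes, 54 had enough reads to be tested, out of 15153 genes tested in all. RNA-seq had been done on 8 libraries of 4 mouse fibrosarcoma cell lines, 2 libraries per line. MC010 and MC011 were made from tumors of mice with a germline knockout of Irf8 (label KO), and MC654 and MC659 from tumors of wild-type C57BL/6 mice (label WT). All 4 tumors were induced under the skin with the carcinogen methylcholanthrene, and each line was kept in culture for many passages before its RNA was taken, with no further treatment in the labels.

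Each line came from 1 tumor, so a label holds 2 tumors, and the label cannot be told apart from what is particular to each tumor. The libraries of a line are not independent animals. The test between labels had no term for the line, so its p-values treat the libraries of a line as if they were separate tumors. Tests between lines measure against the spread within lines only. Library totals were 74063616 to 116206078 counts, and 3 counts, taken here as the floor for a gene with no reads, correspond to 0.0262 to 0.0408 CPM (counts per 1000000 counts of the library after scaling). RNA of Irf8 itself went against the labels: the libraries labelled KO held 442 and 347 counts in MC010 and 32 and 10 in MC011, while those labelled WT held 1 and 2 in MC654 and 1 and 0 in MC659. The counts do not show which part of the gene these reads cover. The labels follow PCR typing of genomic DNA from the lines, done by the study with primers for either Irf8 allele, and this runs opposite to the RNA. The groups are therefore named by their labels throughout. The labelled mesenchymal origin was matched by its markers, whose summed level was 11114 to 11941 CPM in the libraries labelled KO and 15924 to 17555 CPM in those labelled WT. Vim was the highest of these under the KO label, and Fn1 under the WT label, where it was at 7779 to 8132 CPM against 1142 to 2112 and so fell by 2.33 on the log2 scale (adjusted p = 0.000159, edgeR). Of the 10 mesenchymal markers, Fn1 alone fell past the thresholds used below, 3 rose and 6 did not pass. Those that rose were Pdgfra by 3.82, S100a4 by 2.17 and Thy1 by 1.93 (adjusted p = 0.00376, 0.0018 and 0.0417, edgeR). The lower sum under the KO label therefore did not hold marker by marker. Of the other lists, the table held 5 of 10 blood cell, 6 of 8 endothelial and 4 of 5 skeletal muscle markers. These summed to at most 11.5, 2.47 and 3.55 CPM in any library. Epithelial markers were higher, summing to 531 and 565 CPM in MC010 and 34.1 to 129 in the other libraries. Neuron and Schwann cell markers summed to 64.5 and 72.9 CPM in MC011, of which Tubb3 alone made up 62.6 and 70.9, and at most 11.1 in the others. Cd68 was the highest blood cell marker in every library, while Tie1, of endothelial cells, was at 0 in all libraries labelled WT, and Myod1, of muscle, was at 2.46 and 2.78 CPM in MC010, at 0 in MC011 and at 0.136 or lower in those labelled WT.

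In the developing nervous system these ligands steer growing axons. Slits repel axons through Robo receptors, netrins attract or repel through neogenin and UNC5 proteins, and secreted class 3 semaphorins act through a neuropilin that binds the ligand and a plexin that carries the signal. Ephrins are held on the cell surface and signal to Eph receptor tyrosine kinases on the neighbouring cell. Outside the nervous system the same families guide blood vessels and migrating mesenchymal cells, and are often altered in tumors.

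Most of the family was higher in the libraries labelled KO. A gene was counted as changed when its adjusted p was below 0.05 (edgeR quasi-likelihood test, Benjamini-Hochberg over all genes tested) and its log2 fold change was beyond 0.59 in size. By this rule 36 of the 54 tested guidance genes (66.7%) changed, against 22.5% of all genes tested. There were 30 that rose (55.6%, against 13.7% of all genes) and 6 that fell (11.1%, against 8.72%). The share that fell was near that of all genes, and the share that rose was not. The median log2 difference was 1.16 over the 54 genes and 0.02 over all genes. In 31 of the 54 every library labelled KO lay above every library labelled WT (57.4%, against 22.1% of all genes), and in 6 every library labelled KO lay below (11.1%, against 20.5%). With no filter on low counts, 37 of all 60 genes changed (61.7%, against 20.2% of all 18768 genes). The filter can admit a gene through its high group alone: 5 of the 54, Epha4, Epha7, Robo2, Sema3d and Sema3g, averaged under 10 counts in the libraries labelled WT, and 4 of these 5 were among the changed genes. Leaving these out, 32 of 49 changed, still counting Robo1. The share of all genes under the same limit was not computed. On the libraries labelled WT alone 47 of the 54 would have passed the filter, without Epha4, Epha7, Robo1, Robo2, Sema3d, Sema3g and Sema4f. Of 30 tested ligands 15 rose and 2 fell, and of 24 tested receptors 15 rose and 4 fell. In these bulk libraries, fewer cells that make a transcript and less of it per cell cannot be told apart.

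When the counts of the 2 libraries of each line were added together, so that 2 tumors stood against 2, none of the 56 guidance genes with enough reads in that fit passed (0%, against 0% of its 16927 genes; edgeR, lowest adjusted p among the 54 genes tested above 0.0513), while 32 of the 56 and 3658 of all genes had an unadjusted p below 0.05. With the line as a random block in limma-voom, 30 of the 54 changed (55.6%, against 12.4% of all genes). With 1 line left out, more genes had enough reads, and the share of all genes that changed moved with that of the guidance genes. Without MC010, 42 of 57 changed (73.7%, against 29.4% of all genes), and without MC011, 41 of 55 (74.5%, against 36.3%). Without MC654, 31 of 58 changed (53.4%, against 12.7%), and without MC659, 28 of 58 (48.3%, against 11.6%).

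**Figure D1:**
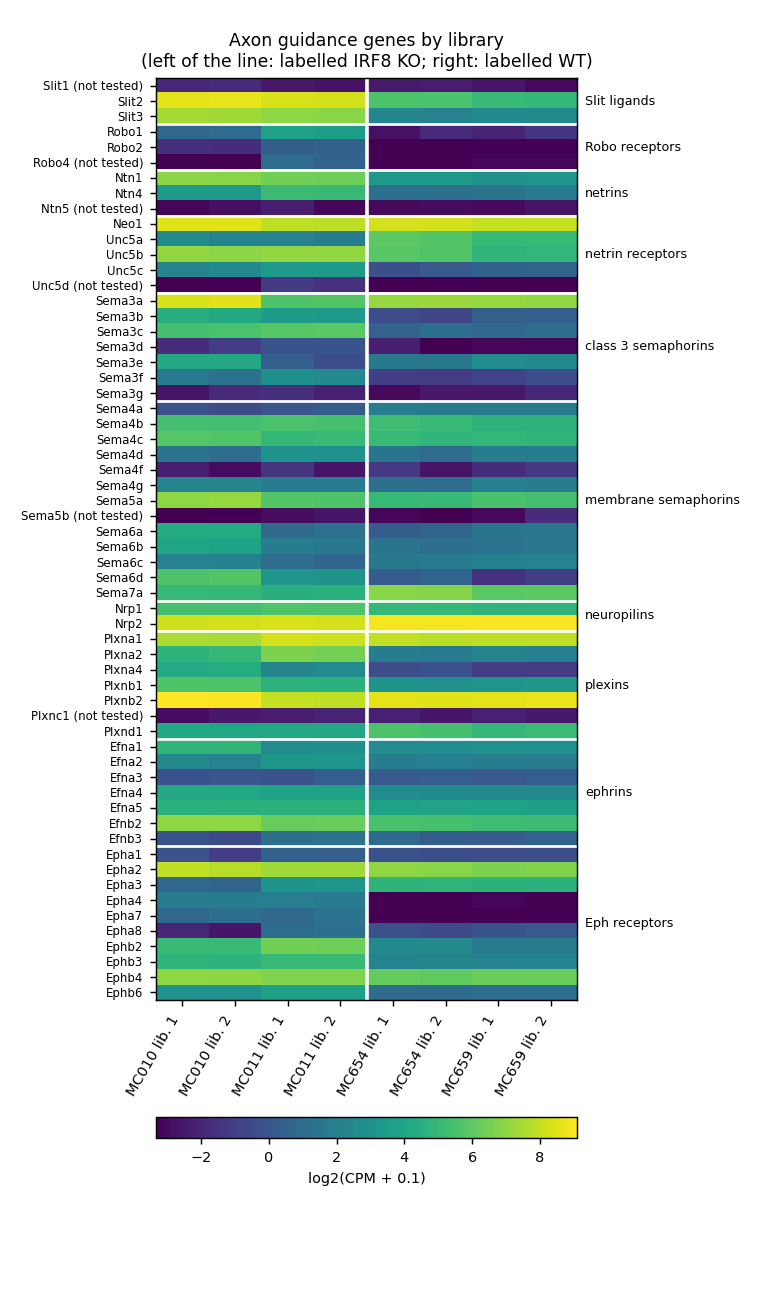
Level of each of the 60 genes (rows, grouped by family) in each of the 8 libraries (columns), as log2 of CPM plus 0.1; the white vertical line divides libraries labelled IRF8 KO from those labelled WT. Slit2, Slit3, Ntn1, Sema3c and Ephb2 are brighter on the left in all 4 libraries, Unc5a and Epha3 are brighter on the right, and the rows for Sema3a and Sema3e differ between the 2 lines on the left.

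**Figure D2:**
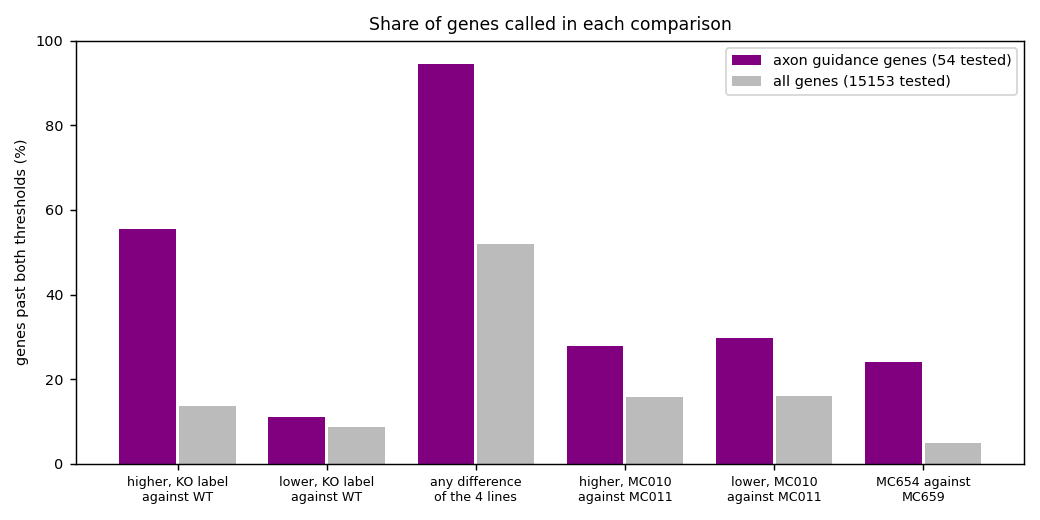
Share of genes past both thresholds (vertical axis, percent) in 6 comparisons, for the 54 tested guidance genes (purple) and all 15153 genes tested (grey). The guidance genes reach 55.6% against 13.7% for genes higher in the libraries labelled KO, and 11.1% against 8.72% for genes lower.

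Both abundant Slit ligands rose. Slit2, a long-range repellent that also acts on endothelial cells, was at 388 and 399.6 CPM in MC010, 327 and 317 in MC011, 49.1 and 47.0 in MC654 and 32.6 and 31.0 in MC659. Slit3, known from diaphragm and bone, was at 171 and 158 CPM in MC010, 126 and 118 in MC011, 5.12 and 4.41 in MC654 and 6.01 and 5.56 in MC659. For both genes the 4 libraries labelled KO lay far above the 4 labelled WT, with MC010 above MC011. Under the WT label Slit2 was higher in MC654 than in MC659, by 0.59 (adjusted p = 9.06e-07). Slit2 rose by 3.16 ± 0.18 on the log2 scale (standard error, adjusted p = 1.65e-05) and Slit3 by 4.76 ± 0.17 (adjusted p = 2.42e-06). Slit1, the Slit most restricted to neurons, stayed at 0.177 CPM or lower in all 8 libraries and was not tested.

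The stretch of 250 bases upstream of the RefSeq start (GRCm38.p6, read on the strand of the gene) is shown for the Slit genes, because both rose in every library labelled KO. The Slit3 stretch lies at chr11:35121206-35121455 (plus strand) and Slit2 at chr5:47982905-47983154 (plus strand). In the coordinates given with the counts, Slit3 starts at 35121224 and Slit2 at 47983138. Most of the Slit3 stretch and the last bases of the Slit2 stretch thus lie inside the genes as counted. Capitals mark the GC box GGGCGG, the binding motif of the SP1 family, on either strand, and the TATA box TATAAA.
Slit3: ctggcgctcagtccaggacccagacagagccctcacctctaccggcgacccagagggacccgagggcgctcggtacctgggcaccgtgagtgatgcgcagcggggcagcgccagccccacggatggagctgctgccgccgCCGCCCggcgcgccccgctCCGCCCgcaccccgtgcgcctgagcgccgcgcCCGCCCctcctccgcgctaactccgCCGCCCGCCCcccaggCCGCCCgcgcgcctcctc
Slit2: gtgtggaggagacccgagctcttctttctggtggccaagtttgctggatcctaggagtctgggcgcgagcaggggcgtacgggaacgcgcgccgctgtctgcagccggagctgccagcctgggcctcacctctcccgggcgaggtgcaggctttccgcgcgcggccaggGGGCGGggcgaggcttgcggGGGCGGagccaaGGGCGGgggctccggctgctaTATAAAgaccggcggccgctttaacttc
The Slit3 stretch held 6 GC boxes and no TATA box, and the Slit2 stretch held 3 GC boxes and 1 TATA box.

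The Robo receptors of the Slits were low in every line and highest in MC011. Robo1 was at 1.72 and 1.93 CPM in MC010, 13.8 and 12.3 in MC011, 0.0479 and 0.177 in MC654 and 0.136 and 0.289 in MC659. Robo2 was at 0.227 and 0.204 CPM in MC010 and 1.16 and 1.29 in MC011, with no count in the 4 libraries labelled WT. For both receptors the libraries of the 2 labels did not overlap, and those of MC011 stood above those of MC010. Robo1 rose by 5.50 ± 0.95 on the log2 scale (adjusted p = 0.00284, edgeR). Neither Robo1 nor Robo2 would have passed the filter on the libraries labelled WT alone. Robo2 was at least 20.8-fold higher in the libraries labelled KO than the floor of 3 counts per library, at least 6.23-fold in MC010 and at least 35.4-fold in MC011. With lines as random effects in limma-voom the difference of Robo1 was 4.98 and did not pass (adjusted p = 0.155). Without MC654 the adjusted p of Robo1 was 0.0542, and without MC011 its log2 difference was 3.46. Robo4, a Robo of endothelial cells, was not tested: it had 194 and 115 counts in MC011, none in MC010 and MC654, and 1 and 1 in MC659. Of the endothelial markers, Tie1 was at 0.560 and 0.405 CPM in MC011, 1.49 and 1.33 in MC010 and at 0 in all libraries labelled WT, and Pecam1 and Cdh5 were at no more than 0.286 and 0.412 CPM in any library. The part of endothelial cells in the Robo4 values was not tested.

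Both tested netrins rose. Ntn1, the founding netrin, was at 124 and 118 CPM in MC010, 88.3 and 82.2 in MC011, 10.3 and 10.5 in MC654 and 8.18 and 8.83 in MC659. Ntn4, a netrin of basement membranes, was at 11.3 and 10.2 CPM in MC010, 35.8 and 33.6 in MC011, 2.19 and 2.28 in MC654 and 2.63 and 3.20 in MC659. The labels did not overlap for either netrin, but the leading line was MC010 for Ntn1 and MC011 for Ntn4. The log2 rise was 3.45 ± 0.17 for Ntn1 (adjusted p = 7.8e-06) and 3.14 ± 0.47 for Ntn4 (adjusted p = 0.0015), the latter 2.05 without MC011. Ntn5 had 1 to 10 counts per library and was not tested.

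Among the netrin receptors the UNC5 genes went in both directions. Unc5a was the guidance gene with the largest fall: it was at 6.08 and 4.69 CPM in MC010, 4.49 and 3.79 in MC011, 63.1 and 54.1 in MC654 and 32.1 and 32.5 in MC659. Unc5b was at 135 and 124 CPM in MC010, 135 and 134 in MC011, 58.3 and 53.6 in MC654 and 27.4 and 29.7 in MC659. UNC5 proteins mediate repulsion by netrin and are known as dependence receptors, which can trigger cell death when no ligand is bound. Unc5a was low in every library labelled KO and Unc5b high, and within the WT label both were higher in MC654 than in MC659, by 0.86 (adjusted p = 1.69e-05) and 0.97 (adjusted p = 5.63e-08) on the log2 scale. Unc5a fell by 3.25 ± 0.28 (adjusted p = 0.000107), Unc5b rose by 1.64 ± 0.25 (adjusted p = 0.00165), and Unc5c, at 4.53 to 11.0 CPM in the libraries labelled KO and 0.719 to 1.45 in the others, rose by 2.81 ± 0.37 (adjusted p = 0.000853). Unc5d had 32 and 19 counts in MC011 and none in the other 6 libraries, and was not tested. Neogenin, encoded by Neo1, is a receptor shared by netrins and repulsive guidance molecules, and was abundant in every library at 231 to 367 CPM. Its log2 difference between labels was 0.08 ± 0.17 (adjusted p = 0.747), with MC010 above and MC011 below both lines labelled WT.

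The Unc5a upstream stretch is given for contrast with the Slits, since this gene fell where they rose. It lies at chr13:54949161-54949410 (plus strand, GRCm38.p6), held 5 GC boxes, in capitals, and had no TATA box.
Unc5a: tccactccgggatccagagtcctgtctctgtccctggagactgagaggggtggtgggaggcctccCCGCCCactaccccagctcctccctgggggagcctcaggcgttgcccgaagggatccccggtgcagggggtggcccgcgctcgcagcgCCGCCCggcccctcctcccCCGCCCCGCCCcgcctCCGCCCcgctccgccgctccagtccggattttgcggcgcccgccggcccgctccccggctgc

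Of the 7 secreted class 3 semaphorins, 4 rose and none fell. Sema3c, which patterns the cardiac outflow tract, was at 43.5 and 48.1 CPM in MC010, 58.5 and 60.5 in MC011, 1.39 and 2.11 in MC654 and 1.71 and 2.10 in MC659. Sema3b was at 22.1 and 18.5 CPM in MC010, 11.3 and 10.6 in MC011, 0.659 and 0.506 in MC654 and 1.25 and 1.22 in MC659. Sema3f was at 3.38 and 2.49 CPM in MC010, 7.27 and 5.91 in MC011, 0.396 and 0.365 in MC654 and 0.465 and 0.689 in MC659. Sema3b and Sema3f lie in a region often lost in human lung cancer and are known as candidate tumor suppressors. In all of these genes the labels did not overlap. The log2 rise was 4.85 ± 0.19 for Sema3c (adjusted p = 3.06e-06), 4.10 ± 0.41 for Sema3b (adjusted p = 0.000216) and 3.31 ± 0.41 for Sema3f (adjusted p = 0.000612). Sema3d, the other of the 4, was near the floor, at 0.201 to 0.835 CPM in the libraries labelled KO and 0 to 0.108 in those labelled WT, which held 9, 0, 1 and 1 counts. It entered the test through its level under the KO label, so its count among the 4 supports nothing. Its fitted log2 difference was 4.03 ± 0.94 (adjusted p = 0.0112), and the call was lost without MC659 (adjusted p = 0.154) and with lines as random effects in limma-voom (adjusted p = 0.231).

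The Sema3c upstream stretch is shown as that of the largest log2 rise of its class. It lies at chr5:17574566-17574815 (plus strand, GRCm38.p6) and held 3 GC boxes, in capitals. In the coordinates given with the counts Sema3c starts at 17574281, so this stretch is upstream of the RefSeq start but inside the gene as counted.
Sema3c: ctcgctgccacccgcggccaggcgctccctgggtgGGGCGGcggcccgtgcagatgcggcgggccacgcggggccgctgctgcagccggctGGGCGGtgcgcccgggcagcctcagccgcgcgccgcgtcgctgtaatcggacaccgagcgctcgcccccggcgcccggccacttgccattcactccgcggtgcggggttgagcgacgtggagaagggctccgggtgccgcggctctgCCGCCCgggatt

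Sema3a, the collapsin that binds neuropilin 1, and Sema3e, which binds plexin D1 without a neuropilin, split the 2 lines labelled KO. Sema3a was at 338 and 363 CPM in MC010 and 50.9 and 54.4 in MC011, with 141 and 149 in MC654 and 139 and 133 in MC659 between them. Sema3e was at 18.1 and 17.9 CPM in MC010 and 1.26 and 0.696 in MC011, with 3.13 and 3.01 in MC654 and 6.45 and 5.88 in MC659 between them. For both genes every MC010 library lay above and every MC011 library below all libraries labelled WT. MC010 exceeded MC011 by 2.74 for Sema3a (adjusted p = 5.05e-15) and 4.18 for Sema3e (adjusted p = 1.19e-11) on the log2 scale, whereas the difference between labels was 0.52 ± 0.64 (adjusted p = 0.561) and 1.04 ± 0.97 (adjusted p = 0.441). Left with MC011 alone under the KO label, the difference was -1.44 for Sema3a and -2.25 for Sema3e, and left with MC010 alone it was 1.31 and 1.96. Sema3g was at 0.0240 to 0.228 CPM, and its difference did not pass (adjusted p = 0.402).

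Of the 13 semaphorins that stay on the membrane, 12 were tested, 3 rose and 2 fell. Sema6d, a class 6 semaphorin that signals through plexin A1 in heart and bone, was at 49.1 and 54.2 CPM in MC010, 9.02 and 8.56 in MC011, 1.14 and 1.49 in MC654 and 0.249 and 0.400 in MC659. Each of the 4 lines had its own level, and the labels did not overlap. Sema6d rose by 5.20 ± 0.92 (adjusted p = 0.00325), and the difference was 3.41 without MC010, while without MC659 its adjusted p was 0.0513. With lines as random effects in limma-voom the difference of Sema6d was 5.07 and did not pass (adjusted p = 0.106), nor did Sema6b (0.168) or Sema5a (0.0712). Sema6b, at 16.1 and 14.9 CPM in MC010 and 3.19 to 3.72 in MC011 against 2.15 to 2.97 in the libraries labelled WT, rose by 1.88 ± 0.55 (adjusted p = 0.0291). Sema5a, which can attract or repel axons, was at 126 and 139.5 CPM in MC010, 55.1 and 51.2 in MC011 and 32.1 to 45.4 under the WT label, and rose by 1.28 ± 0.35 (adjusted p = 0.0226). The calls held in 2 of the 8 fits without 1 library for Sema6b and 3 of 8 for Sema5a. Without MC010 the log2 difference was 0.41 for Sema6b (adjusted p = 0.0718) and 0.46 for Sema5a (adjusted p = 0.0408, under the fold threshold). Leaving out line MC654 gave adjusted p values of 0.199 for both, and leaving out MC659 gave 0.177 for Sema6b and 0.104 for Sema5a.

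The semaphorins that fell are both known from immune cells. Sema7a, which is anchored to the membrane by a lipid and binds integrins, was at 31.3 and 30.4 CPM in MC010, 22.5 and 24.4 in MC011, 119 and 114 in MC654 and 59.7 and 61.5 in MC659. Sema4a, a semaphorin of antigen-presenting cells and T cells, was at 0.626 to 1.16 CPM in the libraries labelled KO and 3.25 to 3.72 in those labelled WT. The labels did not overlap for either gene. Sema7a fell by 1.71 ± 0.27 (adjusted p = 0.00178) and Sema4a fell by 2.01 ± 0.22 (adjusted p = 0.000346). Among the blood cell markers, whose sum was 5.72 to 7.38 CPM under the KO label and 10.0 to 11.5 under the WT label, Cd68 was the highest and Csf1r fell by 1.93 (adjusted p = 0.002). The low markers went both ways. The pan-leukocyte gene Ptprc was at 0.157 and 0.177 CPM in MC010, 0 in MC011 and 0.0240 or lower under the WT label. Cd79a was at 0.0874 to 0.190 CPM under the KO label and 0.0222 to 0.0680 under the WT label. Itgax was at 0.0544 CPM or lower under the KO label and 0.0556 to 0.341 under the WT label. The part of blood cells in these values was not tested. The other tested membrane semaphorins did not pass: Sema4b, Sema4c, Sema4d, Sema4f, Sema4g, Sema6a and Sema6c had log2 differences of -0.94 to 2.41. Sema6a had the largest of these, at 20.1 and 19.3 CPM in MC010 and 1.16 to 2.89 elsewhere (adjusted p = 0.0534), and it passed with DESeq2 on all 8 libraries (2.40, adjusted p = 0.00388) and without either library of MC011 (adjusted p = 0.0200 and 0.0267). Sema4c likewise passed without either library of MC011 (adjusted p = 0.0317 and 0.0434), and Sema4b, at 0.49 on the log2 scale, reached 0.60 without the first library of MC654. Without MC010 Sema4d differed by 1.40 (adjusted p = 0.00067) and Sema6c by -1.11 (adjusted p = 0.00131). Sema5b had 0 to 18 counts per library and was not tested.

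**Figure D3:**
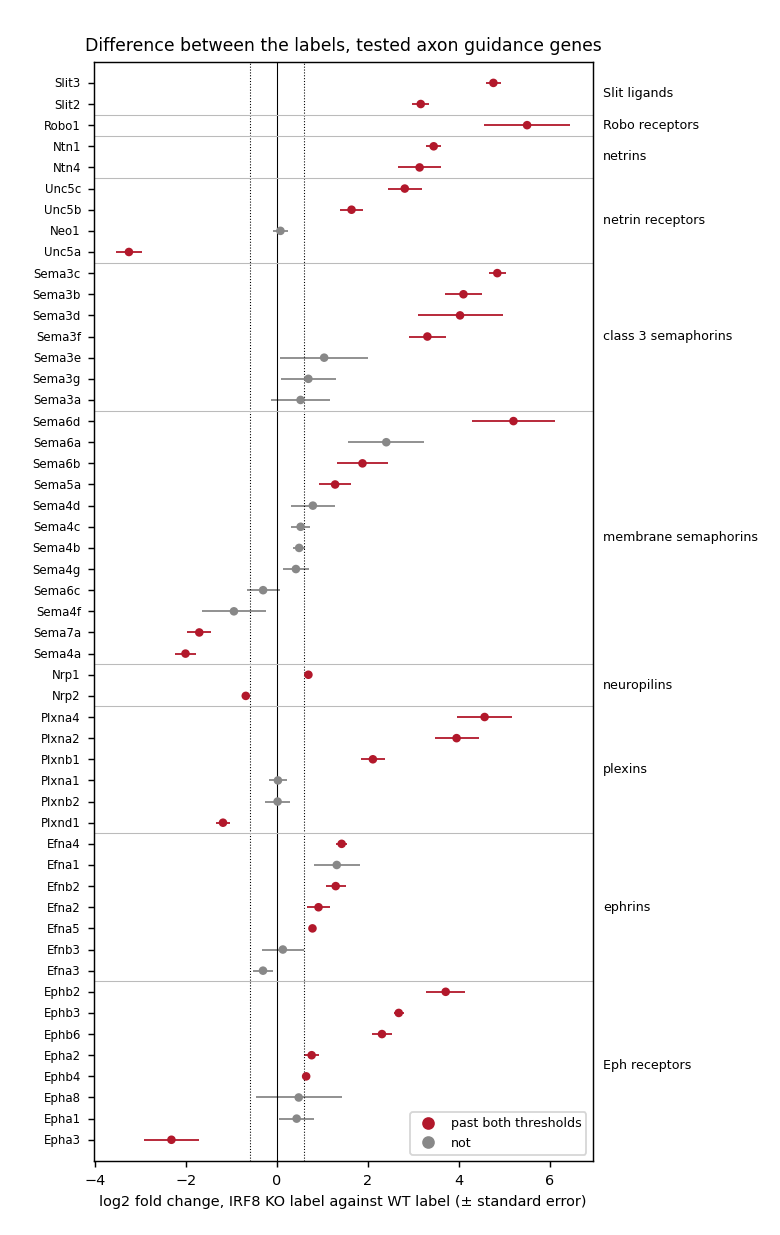
Log2 difference of the libraries labelled KO from those labelled WT (horizontal axis) with its standard error for 51 tested guidance genes, grouped by family; red points passed both thresholds and dotted lines mark a log2 difference of 0.59 in either direction. Robo2, Epha4 and Epha7 are left out because they had at most 1 count over the libraries labelled WT; Robo1 lies at 5.50, Slit3 at 4.76 and Unc5a at -3.25.

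The neuropilins moved in opposite directions by a modest amount. Nrp1, a co-receptor for Sema3a and for VEGF, was at 42.9 to 51.2 CPM in the libraries labelled KO and 26.9 to 30.8 in those labelled WT. Nrp2, the co-receptor preferred by Sema3f, was at 297 to 330.5 CPM under the KO label and 481 to 526 under the WT label. In both genes the labels did not overlap. Nrp1 rose by 0.69 ± 0.09 (adjusted p = 0.000652), falling to 0.57 without MC011 and so under the fold threshold, and Nrp2 fell by 0.68 ± 0.06 (adjusted p = 9.66e-05).

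Of the 6 tested plexins, 3 rose, 1 fell and 2 did not pass. Plxna2 was at 27.2 and 30.3 CPM in MC010, 98.9 and 89.6 in MC011, 3.69 and 3.40 in MC654 and 4.56 and 4.24 in MC659. Plxna4 was at 19.2 and 20.5 CPM in MC010, 4.96 and 6.28 in MC011, 0.671 and 0.765 in MC654 and 0.340 and 0.367 in MC659. Both are receptors of class 3 and class 6 semaphorins, and both were above every WT library in every KO library, but MC011 led for Plxna2 and MC010 for Plxna4. The log2 rise was 3.95 ± 0.48 for Plxna2 (adjusted p = 0.000583) and 4.57 ± 0.60 for Plxna4 (adjusted p = 0.000839). Plxnb1, the Sema4d receptor, was at 24.5 to 50.2 CPM against 7.31 to 9.77 and rose by 2.11 ± 0.27 (adjusted p = 0.000722). Plxnd1, the Sema3e receptor of blood vessels, was at 16.5 to 18.8 CPM against 30.5 to 49.2 and fell by 1.18 ± 0.15 (adjusted p = 0.000693). Plxna1 and Plxnb2 were abundant, at 174 to 313 and 237 to 547 CPM, and their label differences were 0.02 ± 0.19 and 0.02 ± 0.28 (adjusted p = 0.936 and 0.971), although Plxnb2 differed by -0.66 without MC010. Plxnc1, the Sema7a receptor, was at 0.139 CPM or lower and was not tested.

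Of the 7 ephrins listed, 4 rose and none fell, all by less than the Slits. Efnb2, an arterial marker in vessels, was at 129 and 128 CPM in MC010, 73.5 and 75.9 in MC011, 46.0 and 45.2 in MC654 and 38.3 and 36.0 in MC659, a rise of 1.29 ± 0.22 (adjusted p = 0.00245). Efna4 was at 13.8 to 17.7 CPM against 5.38 to 6.23 and rose by 1.42 ± 0.12 (adjusted p = 9.3e-05), and Efna5 was at 23.4 to 25.1 CPM against 13.0 to 15.0 and rose by 0.78 ± 0.08 (adjusted p = 0.000175). Efna2, at 4.41 to 9.41 CPM against 3.68 to 3.98, rose by 0.92 ± 0.26 (adjusted p = 0.0243). The labels did not overlap for these genes. The call of Efna2 was weak: its log2 difference was 0.39 without MC011, its adjusted p was 0.149 without MC654 and 0.179 without MC659, it did not pass with lines as random effects in limma-voom (adjusted p = 0.116), and it held in 2 of the 8 fits that left out 1 library. Without MC659 the adjusted p of Efnb2 was 0.0567. Efna1 was at 27.8 and 27.7 CPM in MC010 and 6.33 to 7.50 in the other libraries, and its label difference of 1.32 ± 0.51 did not pass (adjusted p = 0.0744), although it did without either library of MC011 (adjusted p = 0.0231 and 0.0322). With DESeq2 on all 8 libraries Efna1 passed as well (1.31, adjusted p = 0.0206). Efna3 and Efnb3 were at 0.599 to 2.34 CPM and did not pass, but Efnb3 differed by 0.72 without MC010 and by -0.94 without MC011.

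Among the Eph receptors, Epha4 and Epha7 had at most 1 count over the libraries labelled WT, and both entered the test through the KO label. Epha4, a receptor for both ephrin classes, was at 3.68 and 3.71 CPM in MC010 and 3.93 and 3.42 in MC011, which is 1343 counts in all, against 1 count in the 4 libraries labelled WT. The ratio of these counts per depth was 1281 with a 95% counting interval of 230 to 50653. Epha7, which binds A-type ephrins, was at 1.59 and 2.15 CPM in MC010 and 1.66 and 2.58 in MC011 with no count under the WT label, and so was at least 57.6-fold higher than the floor of 3 counts per library, at least 54.0-fold in MC010 and at least 61.2-fold in MC011. The difference between MC010 and MC011 did not pass for Epha4 (adjusted p = 0.982) or Epha7 (adjusted p = 0.602). Counting intervals and floors cover counting error only.

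The upstream stretches of Epha4 and Epha7 are shown as those of the genes with at most 1 count under the WT label, with Epha3 as the Eph gene that fell. Epha4 lies at chr1:77515089-77515338 (minus strand), the first of 2 Epha7 starts at chr4:28812881-28813130 (plus strand) and Epha3 at chr16:63864176-63864425 (minus strand), all GRCm38.p6 and written on the strand of the gene. Capitals again mark the GC box, of which Epha4 and Epha7 held 1 each and Epha3 none.
Epha4: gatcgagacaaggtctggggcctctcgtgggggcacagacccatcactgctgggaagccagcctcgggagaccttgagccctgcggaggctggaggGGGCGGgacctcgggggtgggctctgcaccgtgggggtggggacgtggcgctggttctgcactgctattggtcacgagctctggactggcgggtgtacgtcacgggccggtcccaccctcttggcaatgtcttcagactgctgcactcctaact
Epha7: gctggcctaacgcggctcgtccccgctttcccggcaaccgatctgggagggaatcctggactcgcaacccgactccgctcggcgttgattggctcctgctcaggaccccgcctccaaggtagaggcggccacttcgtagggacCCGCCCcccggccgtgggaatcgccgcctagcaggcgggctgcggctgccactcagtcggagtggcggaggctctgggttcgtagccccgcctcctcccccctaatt
Epha3: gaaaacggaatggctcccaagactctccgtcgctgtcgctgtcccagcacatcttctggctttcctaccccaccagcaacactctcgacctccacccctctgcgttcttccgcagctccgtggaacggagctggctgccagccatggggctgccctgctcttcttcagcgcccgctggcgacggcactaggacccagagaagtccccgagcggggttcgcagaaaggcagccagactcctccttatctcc

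All 4 B-type Eph receptors tested rose. Ephb2, known from axon pathfinding and intestinal crypts, was at 34.0 and 33.9 CPM in MC010, 88.4 and 83.0 in MC011, 5.85 and 5.74 in MC654 and 3.27 and 3.38 in MC659. Ephb3 was at 28.0 and 26.2 CPM in MC010, 34.5 and 32.9 in MC011, 4.73 and 4.88 in MC654 and 4.53 and 4.81 in MC659. Neither gene had an overlap between labels, and MC011 led in both. The log2 rise was 3.71 ± 0.43 for Ephb2 (adjusted p = 0.000442), 2.68 ± 0.11 for Ephb3 (adjusted p = 3.57e-06) and 2.31 ± 0.22 for Ephb6 (adjusted p = 0.000178), a receptor whose kinase is inactive, at 7.74 to 13.0 against 2.02 to 2.18 CPM. Ephb4, the venous partner of ephrin B2, was at 102 to 128 CPM against 65.6 to 76.3 and rose by 0.64 ± 0.09 (adjusted p = 0.00111), a value close to the fold threshold that fell under it without MC010 (0.48), its first library alone (0.58) or MC654 (0.57).

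The A-type receptors were more mixed. Epha2, a receptor often high in tumors, was at 242 and 220.5 CPM in MC010, 160.1 and 161 in MC011, 132 and 119 in MC654 and 101 and 108 in MC659, and rose by 0.77 ± 0.16 (adjusted p = 0.00661), which was 0.46 without MC010 and had an adjusted p of 0.101 without MC659. Epha3 was at 1.76 and 1.51 CPM in MC010, 8.37 and 9.28 in MC011, 26.5 and 28.1 in MC654 and 25.0 and 24.8 in MC659. The labels did not overlap for Epha3, and within the KO label MC010 was the lower line. Epha3 fell by 2.32 ± 0.60 (adjusted p = 0.018), with -1.58 without MC010 and -3.99 without MC011, and its adjusted p was 0.115 without MC654 and 0.105 without MC659. Epha8 was at 0.149 and 0.0680 CPM in MC010 and 2.02 and 2.24 in MC011 with 0.612 to 1.01 under the WT label, and Epha1 was at 0.381 to 1.34 CPM, and neither passed between labels. Without MC010 both did, with log2 differences of 1.39 for Epha8 and 0.88 for Epha1, and without MC011 Epha8 differed by -2.82. Exons of Epha1 overlap those of Zyx on the other strand, and Zyx had 292744 counts over the 8 libraries against 599 for Epha1. The sources used here do not give the strand setting of the counting, so reads of such pairs may not be separated, which also touches Unc5a, Unc5c, Ephb4, Efna3, Efna4, Sema4c, Plxna1, Plxna4, Plxnb1 and Ntn5.

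**Figure D4:**
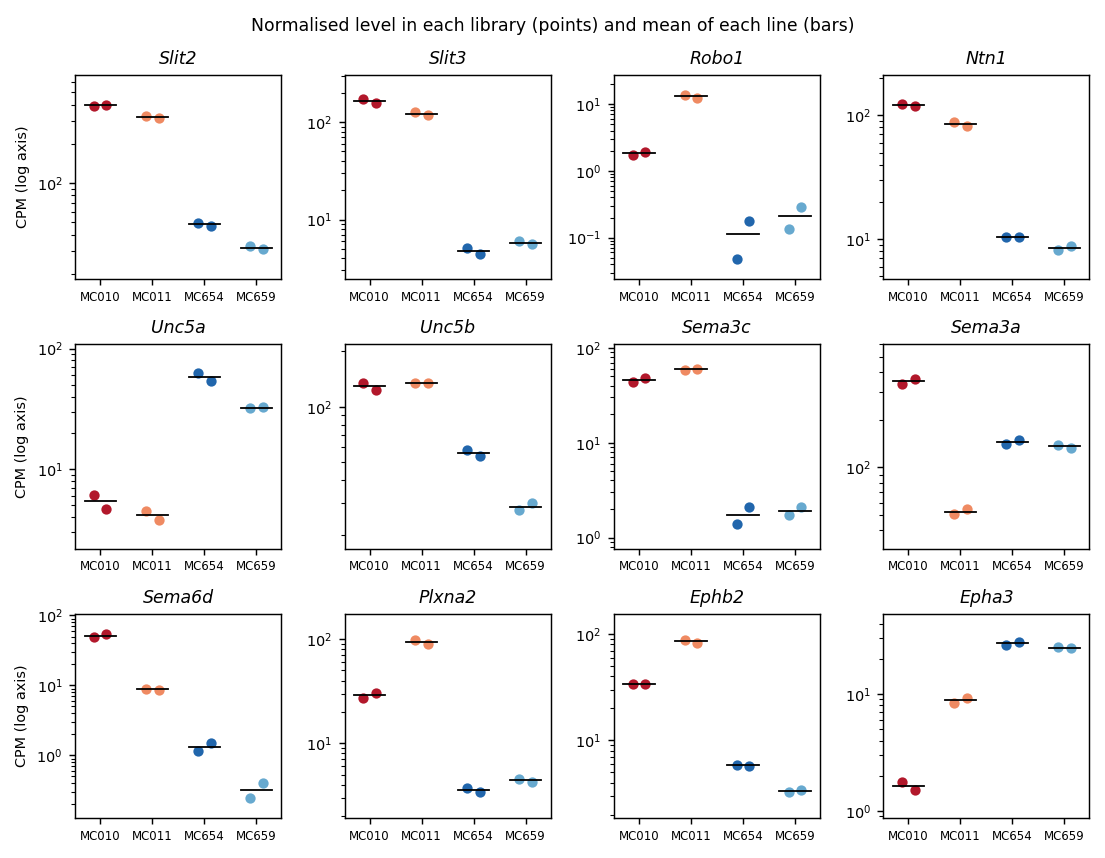
CPM (log axis, different range in each panel) of 12 guidance genes in each library (points) with the mean of each line (bars), MC010 and MC011 labelled KO and MC654 and MC659 labelled WT. Slit2, Slit3, Ntn1 and Sema3c separate by label, with Slit2 also higher in MC654 than in MC659 by 0.59 on the log2 scale. Their log2 differences of MC010 from MC011 run from -0.38 to 0.51, under the fold threshold. Robo1, Sema6d, Plxna2 and Ephb2 also separate by label but differ between MC010 and MC011 beyond that threshold. Sema3a has MC010 at the top and MC011 at the bottom.

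The 4 lines differed from one another in nearly all of these genes. With 1 group per line, 51 of the 54 tested genes differed somewhere among the lines (94.4%, against 51.9% of all genes), the exceptions being Sema3g, Efna3 and Sema4f. The median range between the highest and the lowest line was 2.49 on the log2 scale for the guidance genes and 0.76 for all genes. Between MC010 and MC011, which share a label, 31 of the 54 differed (57.4%, against 31.6% of all genes), 15 higher in MC010 (27.8%, against 15.7%) and 16 higher in MC011 (29.6%, against 16%). In 7 of the 54, Sema3a, Sema3e, Plxnb2, Neo1, Plxna1, Efnb3 and Epha8, the 2 lines differed and lay on opposite sides of all libraries labelled WT (13%, against 8.8% of all genes), a share not far from that of all genes. Between MC654 and MC659, 13 of the 54 differed (24.1%, against 4.95% of all genes). The median size of the log2 difference was 1.53 between labels, 0.85 between MC010 and MC011 and 0.29 between MC654 and MC659, against 0.36, 0.42 and 0.13 over all genes.

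The genes that differed between MC010 and MC011 were counted by role and family. Among the ligands 11 were higher in MC010 and 6 in MC011, and among the receptors 4 were higher in MC010 and 10 in MC011. All 5 Eph receptors that differed, Epha1, Epha3, Epha8, Ephb2 and Ephb6, were higher in MC011, and 6 of the 7 membrane semaphorins that differed, Sema4c, Sema5a, Sema6a, Sema6b, Sema6c and Sema6d, were higher in MC010, with Sema4d the other. Whether the families differ from each other in this was not tested. MC011 also had the highest level of the neuronal marker Tubb3, at 70.9 and 62.6 CPM against 0.830 to 9.08 in the other 6 libraries, and MC010 the highest levels of the keratin genes Krt8 and Krt18, at 293 and 274 CPM and 271 and 257 CPM. The neuron and Schwann cell markers summed to 64.5 and 72.9 CPM in MC011 and at most 11.1 in the others, with Snap25 at 0.0207 CPM or lower in MC011, and the epithelial markers to 531 and 565 CPM in MC010 and 34.1 to 129 in the others, with Epcam at 1.19 CPM or lower and Cdh1 at 0.394 or lower throughout. The less abundant epithelial genes Epcam, Cdh1 and Krt14 went the other way and were higher in MC011 than in MC010, with log2 differences of MC010 from MC011 of -1.54, -4.72 and -3.96 (adjusted p = 0.00321, 0.000172 and 0.000109), Krt14 being at 0.757 and 1.03 CPM in MC011. The part of such cells in the line differences was not tested.

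**Figure D5:**
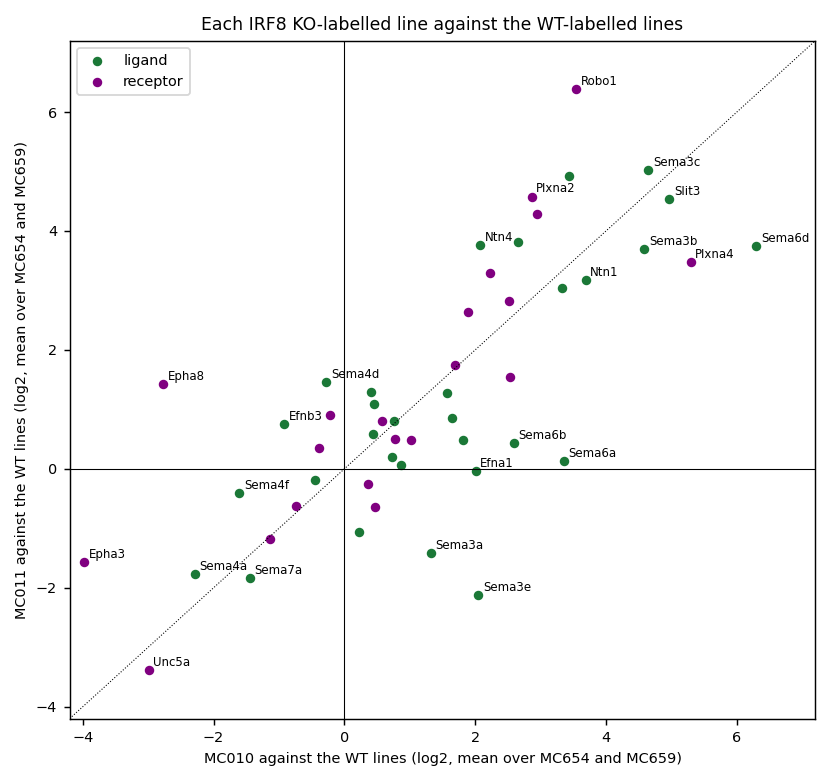
Log2 difference of MC010 (horizontal axis) and of MC011 (vertical axis) from the mean of MC654 and MC659 for 51 tested guidance genes, ligands in green and receptors in purple; the dotted line marks equal differences, both axes share the same WT-labelled lines, and Robo2, Epha4 and Epha7 are left out. Slit3 (4.97 and 4.54) and Sema3c (4.65 and 5.02) lie near the dotted line, while Sema3a (1.32 and -1.42), Sema3e (2.05 and -2.13) and Epha8 (-2.77 and 1.42) lie on opposite sides of 0 in the 2 lines.

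Per kilobase of exon, Plxnb2 had the highest level of the guidance genes in 3 of the 4 lines. In MC010 the highest were Plxnb2 at 68.6 CPM per kilobase, Epha2 at 49.5, Neo1 at 41.3 and Slit3 at 27.1. In MC011 Epha2 led at 34.3, followed by Plxna1 at 33.0, Plxnb2 at 31.7 and Nrp2 at 27.4. In MC654 Plxnb2 was at 47.7, Nrp2 at 40.7, Sema7a at 35.4 and Neo1 at 34.9, and in MC659 Plxnb2 was at 51.5, Nrp2 at 43.8, Neo1 at 29.8 and Plxna1 at 26.3. Of these genes Epha2 and Slit3 rose, Nrp2 and Sema7a fell, and Plxnb2, Plxna1 and Neo1 did not pass between the labels.

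Some of the genes lie close together on their chromosomes. Sema3b and Sema3f, 72.3 kilobases apart on chromosome 9, both rose. Sema3b was higher in MC010 and Sema3f in MC011, with log2 differences of MC010 from MC011 of 0.89 and -1.16. Ephb2 and Epha8, 93.4 kilobases apart on chromosome 4, were both higher in MC011, with log2 differences of MC010 from MC011 of -1.34 and -4.19. On chromosome 5, Sema3a and Sema3e, 423 kilobases apart, were both higher in MC010, while Sema3d, 536 kilobases from Sema3a on its other side, was higher in MC011. Efna4 rose, and Efna3, 10.4 kilobases from it on chromosome 3, had a log2 difference of -0.30 that did not pass.

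The upstream stretches were searched for 4 motifs on both strands, in 67 windows that RefSeq gives for 51 of the 60 genes and in all 32851 windows of the table. The GC box GGGCGG was in 48 of the 67 (71.6%, against 32.7% of all windows), and the median number of CpG dinucleotides was 16 against 6. The TATA box TATAAA was in 2 (2.99%, against 12.4%). The IRF core GAAANNGAA was in 4 (5.97%, against 7.13%), those of Plxnc1, Plxnd1, Sema3d and Sema6b. The ETS-IRF core GGAANNGAA was in 2 (2.99%, against 6.99%), those of Efna1 and Ntn5. None of the 7 stretches printed above held either of these cores. A match or its absence describes the letters of these windows only.

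Genes that work with these ligands and receptors were taken from lists of known partners. Of 72 listed co-receptors, other ligands and intracellular effectors, 63 were tested, 15 rose and 6 fell (33.3%, against the 22.5% of all genes), with a median log2 difference of 0.16. Of 11 other ligands and co-receptors, 4 rose and 3 fell, among them Flrt3 (3.28 ± 0.74, adjusted p = 0.00974), a ligand of UNC5 receptors, and the integrin gene Itga1 (2.56 ± 0.29, adjusted p = 0.000361). Of 13 effectors of Slit, Robo and netrin signalling, 2 rose: Srgap1 (3.54 ± 0.44, adjusted p = 0.000642), a GTPase-activating protein that binds Robo1, and the actin-binding Ablim1 (4.37 ± 0.23, adjusted p = 9.98e-06). Of 14 plexin effectors 3 rose and 2 fell, with the GTPase gene Rnd1 at 1.40 ± 0.38 (adjusted p = 0.0213) and Mical1, an oxidase that takes actin filaments apart, at -2.10 ± 0.19 (adjusted p = 0.000136). Of 11 Eph effectors 5 rose and none fell, led by the exchange factors Kalrn (4.90 ± 0.41, adjusted p = 9.66e-05) and Vav3 (3.70 ± 0.51, adjusted p = 0.000985). Of 14 cytoskeletal effectors shared by the families, Limk1 rose by 0.91 ± 0.20 (adjusted p = 0.0092) and Limk2 fell by 0.70 ± 0.15 (adjusted p = 0.00753), both kinases of cofilin, and 12 did not pass.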

How the data were processed

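The deposited table held, per gene, counts for the 8 libraries, which the authors made from stranded mRNA-seq reads. The submitters' processing notes name STAR 2.7.3a, HTSeq 0.11.2, DESeq2 and the build GRCm38.p6, and the strand setting of the counting was not given in the sources used here. The table also held the authors' scaled counts, fold changes and p-values, which were not used, and 0 unmapped columns of counts. It lists genes with at least 20 counts in sum. The guidance genes, the pathway lists and the marker lists were chosen with earlier results of these data known.

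Counts were analysed in R 4.3.3 with edgeR 4.0.16 (TMM scaling, filterByExpr by label, robust quasi-likelihood fit, Benjamini-Hochberg adjustment). One fit compared 4 libraries labelled KO with 4 labelled WT. Another gave each line its own group, tested any difference with 3 degrees of freedom, and gave MC010 against MC011 and MC654 against MC659. A change needed an adjusted p under 0.05 and a log2 difference beyond 0.59. Standard errors were derived from the fold change and the F statistic. CPM used TMM library sizes, and exon lengths came from GENCODE (GRCm38). Any guidance gene could be named. From each pathway list the 2 changed genes with the largest difference were named, and from each marker list the highest gene and those at 0. Vim, Pdgfra, S100a4, Thy1, Epcam, Cdh1, Cdh5, Krt8, Krt14, Pecam1, Snap25, Mbp, Csf1r, Ptprc, Cd79a and Itgax were named after their values were seen. Alternatives were DESeq2 1.42.0, limma 3.58.1 (voom, with lines entered as random effects), no filter, upper-quartile scaling, a replicate block, no fold threshold, sums per line, and each library or line left out. The fits were tested on simulated data with the spread taken from within lines. For the test between labels these data held no difference between lines of a label. They could therefore not show false calls that come from differences between tumors. Libraries of a line differed beyond counting noise (chi-square per gene 7.69 to 13.3), so no pair was taken as a single library. They are not independent tumors, and the correlation between libraries of a line was 0.83 in limma-voom.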

Additional observations from a re-analysis of the deposited data

Results flagged for a closer look

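Among 108 groups of 4 libraries of 1 label, 4 held a library far from the other libraries by Dixon's ratio. Chance would flag about 1 in 20 groups of independent libraries. Libraries of a line are not independent, and groups at 0 throughout could not be flagged, so that rate does not hold here. Sema3d was at 0.108 CPM in the first library of MC654, and Epha4 at 0.0113 CPM (1 count) in the first library of MC659, both in groups otherwise at or near 0. Efna5 was at 23.4 CPM in the first library of MC010, below the other libraries labelled KO, and Unc5b was at 124 CPM in the second library of MC010, below the others of its label.

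In 7 genes (13% of those tested, against 8.8% of all genes) both libraries of 1 line labelled KO lay above, and both of the other line below, all libraries labelled WT, and the difference between the lines passed the edgeR test. The log2 difference of MC010 from MC011 was 2.74 for Sema3a, 4.18 for Sema3e, 1.11 for Plxnb2, 0.61 for Neo1, -0.73 for Plxna1, -1.66 for Efnb3 and -4.19 for Epha8. The adjusted p was 5.05e-15 for Sema3a, 1.19e-11 for Sema3e, 6.99e-11 for Plxnb2, 5.28e-09 for Neo1, 2.49e-08 for Plxna1, 6.42e-05 for Efnb3 and 5.95e-08 for Epha8.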

How the results depend on the processing

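The main count of changed guidance genes was 36 of 54 (3404 of all 15153 genes). It was 39 of 60 with DESeq2 (4504 of 18764) and 37 of 60 with no filter (3784 of 18768). It was 36 with upper-quartile scaling (3409 of all 15153 genes) and 37 with no fold threshold (5675). With limma-voom and lines as random effects it was 30 (1876 of 15153). When a library or a line was left out it ran from 28 to 42. The lowest was without MC659 (1884 of all 16295 genes) and the highest without MC010 (4735 of 16095). After summing the libraries of a line it was 0 (0 of all 16927 genes), with 0 rising and 0 falling. That fit had 2 sums per label, and why no call was left was not tested. When a library or a line was left out, the 30 genes that rose (2083 of all genes) were 23 to 33. They were 23 without MC659 (1185 of all genes) and 33 without MC011 (3159). The 6 that fell (1321 of all genes) were 5 without MC654 (857) or MC659 (699) and 10 without MC010 (2056). Of the 36 genes, 32 were called in all 8 fits without 1 library and 25 in all 4 fits without 1 line. With no fold threshold, 21 guidance genes and 2198 of all 15153 genes differed between MC654 and MC659, against 13 and 750 with it. Counts over all lines were 49 to 54. The lowest was without the second library of MC011 (7835 of all 15462 genes). The highest was with DESeq2 (8434 of 18768) or no filter (9007 of 18768). For MC010 against MC011 the counts were 29 without that library (4601 of 15462) to 44 with no fold threshold (9550 of 15153).

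A replicate block by library number left 36 guidance genes changed, 30 up and 6 down (3106 of all 15153 genes in either direction). It moved no call of a guidance gene. Deviations of same-numbered libraries correlated at 0.20 to 0.26 among MC010, MC011 and MC654 and at -0.16 to -0.10 between MC659 and each of these, so not every pair was over 0.1 and the number was not taken as a pairing. Whether it marks a shared run for some lines was not tested. The sign turned for 11 uncalled genes when a library or a line was left out, and 5 of them passed the thresholds with the turned sign: Efnb3 ran from -0.94 to 0.72, Epha8 from -2.82 to 1.39, Plxnb2 from -0.66 to 0.46, Sema3a from -1.44 to 1.31 and Sema3e from -2.25 to 1.96. The other 6 were Efna1 (-0.05 to 1.99), Epha1 (-0.24 to 0.88), Neo1 (-0.28 to 0.34), Plxna1 (-0.40 to 0.33), Sema4d (-0.33 to 1.40) and Sema6c (-1.11 to 0.20). The cause was not tested. The depth leaves genes under about 0.0408 CPM undetected in the shallowest library.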
